A study of Homo sapiens with 12 samples.

Results

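The comparison described here is that of 3 cultures of HK-2 cells exposed for 12 h to the compound called Ra with 3 cultures exposed for 12 h to its control vehicle. These are 6 of the 12 arrays in the series, chosen by treatment and time as labelled, and the other 6 hold the same treatments at 48 h. HK-2 is an established human cell line made by immortalising epithelial cells of the kidney's proximal tubule. All cultures shared a defined medium with EGF, insulin, hydrocortisone, transferrin and selenite, and were treated near confluence, a day after plating. The labels call the 3 samples of a group biological replicates, without stating whether they came from separate passages, so p-values measure the spread between these samples. What Ra is chemically and its dose are not stated by the labels. The series was designed to look for expression signatures of compounds toxic to the kidney. Expression was measured on Affymetrix arrays as GCRMA log2 values, on which a difference of 1 unit is a 2-fold change, and 10050 genes had a probe set that reached 5 log2 units on at least 3 of the 12 arrays.

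As background, the proximal tubule reabsorbs most of the filtered solutes and takes up many drugs, which exposes it to toxic compounds. Growing cells spend much of their capacity on ribosomes, whose assembly in the nucleolus is driven by growth signals through mTOR and MYC. When insulin or growth factor signalling through AKT falls, FOXO transcription factors enter the nucleus and activate genes of growth arrest, autophagy and metabolism. Interferon-stimulated genes are induced by interferons or by sensors of foreign nucleic acid, and restrict viruses.

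Correlations between arrays were 0.9973 to 0.9983 within the Ra group, 0.9972 to 0.9978 within the control group and 0.9952 to 0.9968 between the groups. The median gene had an SD of 0.12 log2 units in each group, and the 3′ minus 5′ signal of ACTB, a sign of RNA integrity, was 0.89 to 0.99 with Ra and 0.79 to 0.98 in control cells. All 5 epithelial markers were measured (KRT8, KRT18, KRT19, EPCAM and CDH1). Of these 1 rose and 0 fell, beside 7.34% rises and 6.25% falls over all genes tested. They summed to 56.4 to 57.3 log2 units over the Ra arrays and 55.8 to 56.1 over the control arrays. Of 12 proximal tubule markers, 8 never reached 5 log2 units at 12 h, among them LRP2, CUBN, AQP1 and SLC34A1, while SLC22A5, PAX8 and ABCB1 were measured and fell with Ra. In a wider list of 40 proximal tubule genes 11 were measured, of which those 3 fell and the transcription factor LHX1 rose by 1.01 ± 0.23, with 4 higher and 7 lower means (2 rises and 3 falls with the replicate block). Another ABCB1 probe set gave -0.22, and the mean of its probe sets missed the test (limma adjusted p = 0.0511). Of the markers of other cells, 3 of 9 fibroblast, 1 of 10 endothelial, 3 of 6 podocyte, 0 of 9 immune and 0 of 9 distal nephron genes were measured, and none of these passed the test, though the fibroblast gene LUM did with the replicate block (limma adjusted p = 0.0105). In bulk RNA of this kind, fewer cells of a type and less RNA per cell cannot be told apart.

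At 12 h many genes had moved by small amounts. Limma, fitted to the 6 arrays with Benjamini-Hochberg adjustment over the 10050 genes, called 1366 genes at an adjusted p of 0.05, which is 13.6% of those tested: 738 rose (7.34%) and 628 fell (6.25%). The median rise was 0.58 log2 units and the median fall -0.44, against a median of 0.01 over all genes. Rises reached further than falls. At least 2-fold changes numbered 74 among the rises and 15 among the falls, while 289 rises and 416 falls were under 0.5 log2 units. Of the called genes, 46 had a group mean under 5, where the value depends on GCRMA's model of the background. With the replicate number as a block, 2351 genes were called (23.4%), 1280 rises and 1071 falls. List counts with the block are read against these. The count is fragile to single arrays: it was 332, 293 and 1388 without Ra replicate 1, 2 or 3, and 412, 527 and 584 without control replicate 1, 2 or 3. In a fit of all 12 arrays, which shares its spread with the 48 h groups, it was 3.

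**Figure D1:**
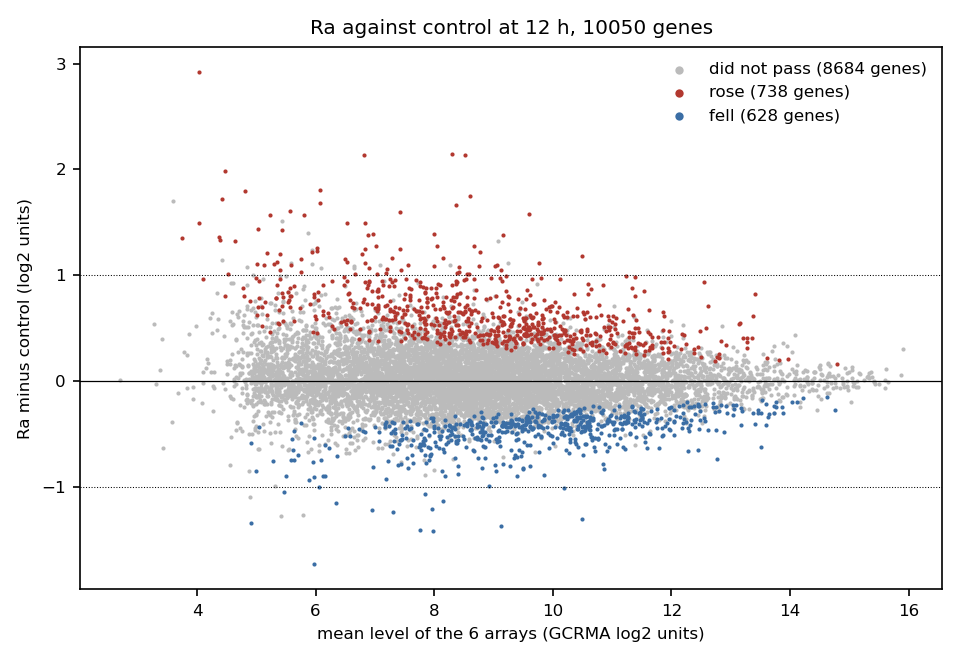
Difference between the Ra and control means at 12 h (log2 units, vertical axis) against the mean level over the 6 arrays (log2 units, horizontal axis), 1 point per gene, with rises and falls past limma's adjusted p of 0.05 in colour. The 738 rises reach larger sizes than the 628 falls, and most called genes lie within 1 log2 unit of 0.

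The largest rises with both group means at 5 or above included regulators of growth signalling and metabolism. Groups that do not overlap were a condition of this ranking and of that of the falls. They were found for many genes, 1845 higher and 1698 lower with Ra among the 10050, so separate groups alone single out no gene. KLHL24, which encodes a substrate adaptor of a cullin ubiquitin ligase, measured 9.50, 9.69 and 8.94 log2 units with Ra and 7.32, 7.48 and 6.88 in control cells. Every Ra array was above every control array by more than the whole spread within either group, and the difference was 2.15 ± 0.22 log2 units (SE; 4.44-fold, limma adjusted p = 0.00556). Other KLHL24 probe sets gave 1.97 and, for types that can cross-hybridise, 2.25 and 0.05. TXNIP, an arrestin-family protein that binds thioredoxin and limits glucose uptake, measured 10.02, 10.15 and 10.99 log2 units with Ra and 8.36, 8.76 and 9.31 in control cells. The groups did not overlap, replicate 3 was the highest in each, and TXNIP rose by 1.58 ± 0.30 (2.99-fold, limma adjusted p = 0.0196). Other TXNIP probe sets gave 1.74 and 1.55. SULT1C2, a sulfotransferase, measured 9.32, 9.53 and 8.73 log2 units with Ra and 7.93, 7.75 and 6.93 in control cells. Replicate 3 was the lowest in each group, and the groups did not overlap, and SULT1C2 rose by 1.66 ± 0.29.

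Several smaller rises in the same ranking concerned named signalling proteins. IL17RD, a membrane inhibitor of FGF receptor signalling to ERK, rose by 1.56 ± 0.28 log2 units, and RHEBL1, a small GTPase related to the mTORC1 activator RHEB, by 1.39 ± 0.24. A further RHEBL1 probe set gave 1.96. SLC44A2, a choline transporter-like protein, rose by 1.39 ± 0.17, TMEM255A by 1.50 ± 0.19 and ABTB1 by 1.49 ± 0.11. ABTB1, an ankyrin repeat and BTB domain protein, measured 7.26, 7.32 and 7.25 log2 units with Ra and 5.79, 5.90 and 5.66 in control cells. Its 3 Ra arrays all stood more than 1 log2 unit above the highest control array (limma adjusted p = 0.00395).

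The falls reached less far. CCND2, the D-type cyclin that opens the G1 phase to growth signals, measured 8.57, 8.10 and 8.62 log2 units with Ra and 9.66, 9.80 and 9.95 in control cells. The groups did not overlap, the difference was -1.37 ± 0.15 log2 units (limma adjusted p = 0.0057), and another probe set gave -1.16. CCDC86, a nucleolar protein, measured 8.51, 8.36 and 8.43 log2 units with Ra and 9.36, 9.46 and 9.45 in control cells. Its Ra arrays lay below all control arrays, at a difference of -0.99 ± 0.09. CGN, or cingulin, an adaptor of the tight junction, fell by 0.94 ± 0.16, and C1orf116, EFHB and WDCP fell by 1.13 ± 0.21, 1.07 ± 0.24 and 1.00 ± 0.17. In a list of epithelial junction and keratin genes that leaves out CGN, 29 were measured. Of these 3 rose and 1 fell, beside 7.34% rises and 6.25% falls over all genes tested (7 and 1 with the replicate block). The list's median was 0.15, with 24 higher and 5 lower means. NOP16, a nucleolar protein of large ribosomal subunit assembly, was among the 15 largest falls too and is described with its pathway.

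**Figure D2:**
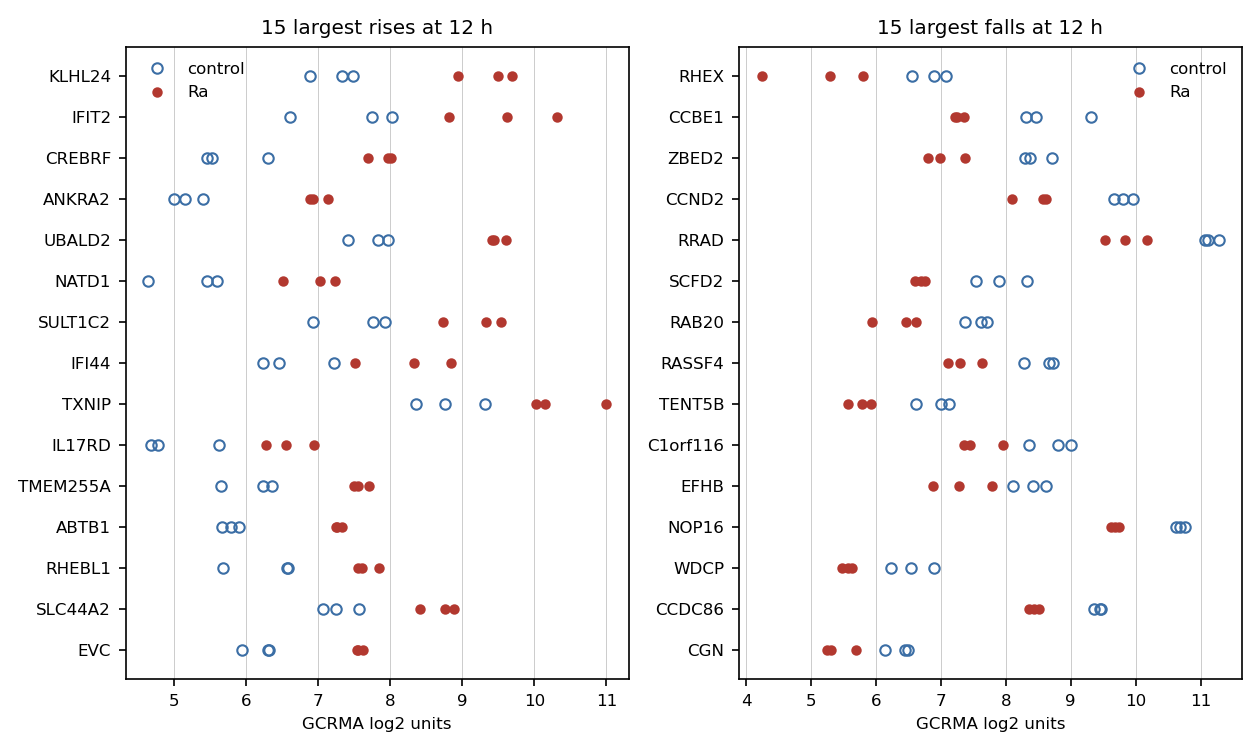
Values on each array (log2 units, horizontal axis) of the 15 largest rises and 15 largest falls whose groups do not overlap and whose means are both at 5 or above, with Ra and control arrays as separate points. KLHL24 shows the widest gap among the rises, at 2.15 log2 units between the means, and RHEX among the falls, at -1.74.

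Many genes that build ribosomes fell. Counts of this list and of those that follow are read against all genes tested, of which 7.34% rose and 6.25% fell. The lists and their members were chosen with earlier results of these data known. Their counts and medians are therefore descriptions, and not independent evidence of a list's direction. Of 106 listed genes of ribosome assembly and RNA polymerase I, 99 were measured; 46 fell and 1 rose, with a median of -0.35 log2 units against 0.01 for all genes, and 93 had lower means. Among the 31 measured genes of the small subunit processome, which cuts and folds the small subunit's RNA around the U3 snoRNA, 20 fell and 0 rose (median -0.43). The box C/D and H/ACA particles, which modify ribosomal RNA, had 6 falls of 12 (median -0.28). Large subunit assembly factors had 16 falls of 40 (median -0.34). RNA polymerase I and its factors, which transcribe ribosomal DNA, had 4 falls and 1 rise of 16 (median -0.13), the rise being that of POLR1D, a subunit shared with RNA polymerase III (0.46 ± 0.10).

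NOP16 measured 9.68, 9.61 and 9.74 log2 units with Ra and 10.69, 10.76 and 10.63 in control cells, with no overlap and a difference of -1.01 ± 0.08 (limma adjusted p = 0.00395). A second probe set of NOP16 gave -0.85. DDX10, an RNA helicase of the small subunit pathway, measured 7.43, 7.66 and 7.99 log2 units with Ra and 8.59, 8.57 and 8.49 in control cells. The Ra arrays were all lower, by 0.85 ± 0.15. LYAR, a nucleolar zinc finger protein, fell by 0.79 ± 0.12 and MRTO4, which holds the place of the stalk protein during large subunit assembly, by 0.72 ± 0.13. Averaged over the 99 genes as the difference from the control mean, the arrays stood at -0.30, -0.38 and -0.34 with Ra and at 0.02, -0.06 and 0.04 in control cells. The number that fell was 18, 12 and 42 without Ra replicate 1, 2 or 3 and 14, 22 and 21 without control replicate 1, 2 or 3.

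Promoters of 3 processome genes that fell are shown because they hold the E-box CACGTG, the palindrome bound by MYC with MAX and by related factors. The sequences are RefSeq's, build GRCh38.p14, from within the 250 bases before the annotated start, 5′ to 3′ on the gene's strand, with the E-box in capitals.
UTP4: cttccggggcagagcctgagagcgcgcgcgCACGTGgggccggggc
UTP14A: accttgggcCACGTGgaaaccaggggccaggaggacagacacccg
UTP18: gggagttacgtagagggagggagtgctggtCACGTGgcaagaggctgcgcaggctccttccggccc
The windows are those of UTP4 at chr16:69132603-69132648, plus strand, UTP14A at chrX:129905914-129905958, plus strand and UTP18 at chr17:51260427-51260492, plus strand. The first base of the E-box lay 16, 241 and 89 bases before the start of UTP4, UTP14A and UTP18. UTP4 fell by 0.54 ± 0.07, UTP14A by 0.36 ± 0.10 and UTP18 by 0.23 ± 0.06 log2 units. The E-box was found in 13 of the 85 listed genes that matched a promoter (15.3%), in 5 of the 36 that fell and matched (13.9%), and in 9.46% of the promoters of all genes tested. Over all genes it was in 10.3% of the promoters of those that fell and in 9.19% of those that rose. A match of letters is not evidence of binding.

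The rest of the protein synthesis machinery is given by role, beside 7.34% rises and 6.25% falls over all genes tested. RNA polymerase III, which makes 5S RNA and tRNA, had 4 falls of 19 (median -0.19), led by the subunits POLR3K (-0.73 ± 0.10) and POLR3G (-0.71 ± 0.11), and 6 with the replicate block. Mitochondrial ribosomal proteins had 24 falls of 76 and 0 rises, with 75 lower means and a median of -0.24. MRPL46 measured 8.28, 7.85 and 7.80 log2 units with Ra and 8.67, 8.67 and 8.78 in control cells, without overlap, and fell by 0.73 ± 0.14; MRPS9 fell by 0.71 ± 0.09, MRPL58 fell by 0.67 ± 0.14 and MRPL27 fell by 0.64 ± 0.11. Of 57 measured proteins of cytosolic ribosomes 2 fell, 30 had higher and 27 lower means, and the median was 0.004. The 2 falls were those of paralogues of the core proteins, RPL22L1 (-0.58 ± 0.06) and RPL7L1 (-0.27 ± 0.06). Many ribosomal protein genes have processed pseudogenes that can share probes. Of 44 translation factors 9 fell and 1 rose (13 and 4 with the block). The eIF2B subunits EIF2B3 and EIF2B5 fell by 0.59 ± 0.10 and 0.55 ± 0.09, EIF5B, which joins the subunits, by 0.51 ± 0.07, while the elongation factor EEF2 rose by 0.41 ± 0.09. The count of mitochondrial ribosomal falls was 5, 4 and 31 without Ra replicate 1, 2 or 3 and 11, 11 and 9 without control replicate 1, 2 or 3.

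Some genes that fold and import proteins also fell, and their counts stand beside 6.25% falls over all genes tested. Mitochondrial import and its chaperones had 12 falls of 28 (median -0.25), with GRPEL1, the exchange factor of the matrix HSP70, at -0.58 ± 0.09, the pore component TOMM5 at -0.51 ± 0.06, and the small chaperones TIMM13 and TIMM8B at -0.46 and -0.46. Cytosolic chaperones had 15 falls of 40 (median -0.24; 24 with the block). Within them, 7 of 12 members of the CCT chaperonin and of prefoldin fell, led by PFDN2 (-0.44 ± 0.09) and CCT5 (-0.40 ± 0.05), as did FKBP4, an HSP90 co-chaperone (-0.64 ± 0.09), and HSPA14 (-0.58 ± 0.09). Oxidative phosphorylation had 9 falls of 86 (median -0.11; 19 falls and 1 rise with the block), led by the ATP synthase gene ATP5MC1 (-0.62 ± 0.14), and the proteasome 5 of 34 (median -0.15; 12 with the block), led by PSMD5 (-0.46 ± 0.07). Purine synthesis had 4 falls of 12, PPAT (-0.47 ± 0.09, and -0.14 on another probe set), PFAS, ADSL and PAICS, which catalyse steps of the same pathway to IMP. Among 10 pyrimidine genes UMPS, the last enzyme of UMP synthesis, fell by 0.62 ± 0.07 and DUT rose by 0.26 ± 0.07. Without Ra replicate 1, 2 or 3 the falls numbered 4, 4 and 10 for import, 5, 7 and 18 for chaperones and 1, 2 and 17 for oxidative phosphorylation. Without control replicate 1, 2 or 3 they numbered 5, 5 and 6, then 6, 7 and 8, and 2, 2 and 2.

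Of 25 measured genes reported as FOXO targets 13 rose, against 7.34% of all genes tested. The list held 38 FOXO factors and targets, of which 27 were measured and 0 fell, with a median of 0.38 log2 units. KLHL24 and CREBRF were put on this list with their rises known. Its count, median and array means are therefore not independent evidence of its direction. Of the factors, FOXO3 differed by 0.19 ± 0.08 and FOXO4 by -0.12 ± 0.15, neither past the test, and FOXO1 was not measured above the filter. CREBRF, a regulator of the CREB3 family, measured 8.01, 7.96 and 7.69 log2 units with Ra and 6.30, 5.45 and 5.53 in control cells. The groups were apart by 2.13 ± 0.23, and other CREBRF probe sets gave 1.57 and 0.83. FBXO32, or atrogin-1, a muscle atrophy ubiquitin ligase, measured 9.44, 9.02 and 9.44 log2 units with Ra and 8.59, 7.73 and 7.76 in control cells. It rose by 1.28 ± 0.24 with no overlap. CCNG2, a cyclin of growth arrest, rose by 0.88 ± 0.07, the repressor HBP1 by 0.85 ± 0.12, and the CDK inhibitor CDKN1B by 0.40 ± 0.10. The arrays' mean differences over the 27 genes were 0.53, 0.60 and 0.47 with Ra and 0.09, -0.06 and -0.03 in control cells. The rises numbered 6, 6 and 11 without Ra replicate 1, 2 or 3 and 8, 5 and 7 without control replicate 1, 2 or 3.

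TXNIP and HBP1 have the forkhead motif TGTTTAC, read on either strand, in the 250 bases before their start, and their windows are shown with it in capitals (RefSeq, GRCh38.p14, 5′ to 3′ on the gene's strand).
TXNIP: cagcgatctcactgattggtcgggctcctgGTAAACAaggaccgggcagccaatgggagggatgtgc
HBP1: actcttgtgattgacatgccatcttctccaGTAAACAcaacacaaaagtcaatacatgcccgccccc
The windows are those of TXNIP at chr1:145996667-145996733, minus strand and HBP1 at chr7:107168800-107168866, plus strand. In both the capitals read as the reverse complement of the motif, and the first base lay 124 and 173 bases before the start. The motif was in 4 of 24 listed genes with a promoter (16.7%), in 1.83% of all genes tested, in 3.87% of those that rose and in 3.3% of those that fell. These windows were chosen after their values were seen.

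The 3 measured genes of the YPEL family, small zinc-binding proteins, all rose: YPEL1 by 1.79 ± 0.15, YPEL2 by 0.88 ± 0.13 and YPEL5 by 0.39 ± 0.09 log2 units. YPEL1's control mean was 3.91, so its size depends on the background model, while YPEL2 measured 7.92, 8.19 and 7.91 log2 units with Ra and 7.20, 7.26 and 6.93 in control cells. Of 8 genes of the MYC network 2 rose, both antagonists that take MAX from MYC, MXI1 (0.73 ± 0.17) and MNT (0.69 ± 0.14). MYC itself measured 12.51, 12.26 and 12.40 log2 units with Ra and 12.05, 11.72 and 12.20 in control cells. Its groups did not overlap, as was so for 1845 of the 10050 genes with Ra higher. The MYC difference of 0.40 ± 0.12 missed the test (limma adjusted p = 0.0709) but passed with the replicate block (limma adjusted p = 0.00936).

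Interferon-stimulated genes rose in part, and are read against the 7.34% of all genes tested that rose. Of 81 listed, 61 were measured, and 12 rose and 0 fell, with a median of 0.26; 45 had higher means. With the replicate block 23 rose and 1 fell. Effectors contributed 7 of the 12 (of 33), sensors and signalling genes 3 (of 15) and antigen presentation 2 (of 13). IFIT2, of the IFIT family of antiviral RNA-binding proteins, measured 9.63, 10.32 and 8.82 log2 units with Ra and 8.02, 7.75 and 6.60 in control cells. The groups did not overlap, and IFIT2 was lowest in replicate 3 of each group; the rise was 2.13 ± 0.45 (limma adjusted p = 0.024), and 1.90 on another probe set. DDX60, a helicase that aids RNA sensing, measured 9.94, 10.31 and 9.31 log2 units with Ra and 8.93, 8.43 and 8.06 in control cells, again without overlap, and rose by 1.38 ± 0.29. IFI44 measured 8.33, 8.84 and 7.51 log2 units with Ra and 7.21, 6.46 and 6.23 in control cells and rose by 1.59 ± 0.36. IFI44L rose by 1.60 ± 0.35 from a control mean of 4.76, near background. IFIH1 (MDA5), the sensor of long double-stranded RNA, rose by 1.04 ± 0.28, HERC5, the ligase that attaches ISG15, by 0.96 ± 0.16 and IFIT3 by 1.18 ± 0.32. Other classical members did not pass: ISG15 differed by 0.24 ± 0.16, IFI6 by 0.01 ± 0.10 and IFIT1 by 1.11 ± 0.41, of which IFIT1 passed with the replicate block (limma adjusted p = 0.00268). The interferon genes IFNB1 and IFNL1 had no probe set above the filter. On average over the 61 genes the Ra arrays stood at 0.35, 0.52 and 0.21 and the control arrays at 0.09, 0.01 and -0.10. The number of rises was 0, 0 and 18 without Ra replicate 1, 2 or 3 and 3, 3 and 2 without control replicate 1, 2 or 3. Over all genes the 738 rises became 200, 166 and 764 without Ra replicate 1, 2 or 3. They became 258, 267 and 370 without control replicate 1, 2 or 3. Without Ra replicate 1 or 2 the list thus lost all its rises, while rises over all genes dropped in part. The list median stayed between 0.21 and 0.30 when each array was left out.

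Promoters of 4 interferon-stimulated genes that rose are shown for the motif GAAANNGAA, the core of the element bound by IRF factors and the ISGF3 complex, in capitals on either strand. They were chosen after their values were seen, and come from RefSeq (GRCh38.p14), 5′ to 3′ on the gene's strand, within 250 bases before the start.
DDX60: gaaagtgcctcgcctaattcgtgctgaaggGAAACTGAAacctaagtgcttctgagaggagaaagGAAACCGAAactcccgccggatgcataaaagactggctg
HERC5: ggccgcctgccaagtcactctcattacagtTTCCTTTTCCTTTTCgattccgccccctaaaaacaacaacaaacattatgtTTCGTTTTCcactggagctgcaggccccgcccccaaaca
IFIT3: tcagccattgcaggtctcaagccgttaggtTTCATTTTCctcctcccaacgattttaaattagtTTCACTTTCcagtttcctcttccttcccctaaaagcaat
PARP14: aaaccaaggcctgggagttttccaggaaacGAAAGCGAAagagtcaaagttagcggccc
The windows are those of DDX60 at chr4:168318767-168318870, minus strand, HERC5 at chr4:88456965-88457084, plus strand, IFIT3 at chr10:89327812-89327914, plus strand and PARP14 at chr3:122680780-122680838, plus strand. The motif began 88 and 53 bases before the start in DDX60, 155 and 121 in IFIT3, 29 in PARP14, and 124, 118 and 73 in HERC5, where the first 2 overlap. It was in 27 of 51 listed genes with a promoter (52.9%), in 8 of the 11 that rose and matched (72.7%), and in 5.19% of all genes tested. The list holds genes known to respond to interferon, and nothing is read from its share.

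In the insulin, PI3K and mTOR list, 4 of 32 genes rose and 2 fell, with 3 of the rises and 1 of the falls among its 9 receptors and adaptors. This list and the ERK list stand beside 7.34% rises and 6.25% falls over all genes tested. IGF1R, the IGF-1 receptor, measured 8.19, 8.28 and 8.14 log2 units with Ra and 7.26, 7.32 and 7.34 in control cells. Its groups did not overlap and it rose by 0.90 ± 0.09; other probe sets gave 1.11 and 0.75. FGFR2 fell by 0.80 ± 0.14, and its other probe sets gave -0.36 to -1.03, and the mean of all FGFR2 probe sets just missed the test (limma adjusted p = 0.0501). RICTOR, the core of mTORC2, rose by 0.48 ± 0.09 and SGK1, a kinase that mTORC2 activates, fell by 0.48 ± 0.13. The kinase genes AKT1 (-0.22 ± 0.12) and MTOR (-0.04 ± 0.09) did not pass. Of 37 ERK output and immediate early genes 10 rose and 1 fell (median 0.15; 16 and 3 with the block). The ETS factor ETV1 rose by 1.12 ± 0.16, the small MAF protein MAFF by 0.91 ± 0.16, PHLDA1 by 0.85 ± 0.11 and the feedback inhibitor SPRY4 by 0.80 ± 0.19, while the epithelial ETS factor ELF3, the single fall, was at -0.62 ± 0.16. Without Ra replicate 1, 2 or 3, 3, 2 and 10 rose, and without control replicate 1, 2 or 3, 6, 4 and 7.

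Autophagy genes rose in 9 of 36 cases and fell in 1 (median 0.11). These and the lysosomal counts stand beside 7.34% rises and 6.25% falls over all genes tested. ULK1, the kinase that starts autophagy, rose by 0.97 ± 0.20 with a control mean of 4.51, where the background model matters. GABARAPL1, an ATG8-family protein of the autophagosome membrane, measured 8.64, 8.68 and 8.93 log2 units with Ra and 7.95, 7.78 and 7.80 in control cells. Every Ra array was higher, and it rose by 0.91 ± 0.11 (1.15 on another probe set). WIPI1 rose by 0.70 ± 0.16 and BNIP3L, a receptor for mitophagy, by 0.67 ± 0.06; ATG16L1 fell by 0.42 ± 0.11. Of 52 lysosomal genes 9 rose and 2 fell (median 0.13; 15 and 3 with the block). RRAGD, a GTPase that tethers mTORC1 to the lysosome, measured 8.87, 9.09 and 8.10 log2 units with Ra and 7.67, 7.83 and 6.75 in control cells. It rose by 1.27 ± 0.33, with replicate 3 the lowest of each group. The cathepsins CTSO (0.90 ± 0.14), CTSH (0.64 ± 0.14) and CTSB (0.63 ± 0.13) rose, and ATP6V1D (-0.39 ± 0.07) and GLA (-0.37 ± 0.09) fell. CTSB probe sets disagreed: the others gave 0.003 to 0.54, and the mean of all CTSB probe sets missed the test (limma adjusted p = 0.113). The lysosomal average overlapped between groups, at 0.26, 0.26 and 0.02 with Ra against 0.07, -0.01 and -0.06, while within same-numbered pairs Ra was higher in 3 of 3, by 0.19, 0.27 and 0.09. The E-box, which TFEB also binds, was in 13 of 36 lysosomal promoters (36.1%) and in 9.46% of those of all genes tested. This share covers the whole list, whether or not a member rose, and binding was not tested. Rises in autophagy numbered 4, 3 and 7 without Ra replicate 1, 2 or 3 and 5, 3 and 5 without control replicate 1, 2 or 3, and those in the lysosome 3, 0 and 12, and 3, 2 and 3.

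TGF-beta, BMP and matrix genes rose in 13 of 54 cases and fell in 0 (median 0.24, with 46 higher means; 21 rises and 1 fall with the block). Of 19 ligands, receptors and SMADs 5 rose, and of 35 matrix genes and targets 8. Over all genes tested 7.34% rose. The collagen receptor ITGA2 rose by 1.10 ± 0.14 from a control mean of 4.75, where the background model matters. SMAD6, an inhibitory SMAD, measured 7.37, 7.65 and 7.63 log2 units with Ra and 6.53, 6.51 and 6.57 in control cells and rose by 1.01 ± 0.11 without overlap, though a second SMAD6 probe set gave -0.15. SKIL, a SMAD co-repressor, rose by 0.97 ± 0.11 and the BMP target ID2 by 0.96 ± 0.19. The 3 measured fibroblast markers, COL1A1, DCN and LUM, summed to 27.6 to 28.6 log2 units over the Ra arrays and 25.9 to 27.6 over the control arrays, and their part in the result was not tested. The count of rises was 7, 7 and 14 without Ra replicate 1, 2 or 3 and 7, 8 and 11 without control replicate 1, 2 or 3.

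Of 116 cell cycle genes 6 rose and 4 fell, with a median of -0.003 and 58 means on each side of 0 (11 and 11 with the block). Neither share was above those over all genes tested, of which 7.34% rose and 6.25% fell. Beside CCND2, the mitotic kinase AURKA fell by 0.52 ± 0.06, and CCNG2 and PRIM1, the small subunit of primase, rose by 0.88 ± 0.07 and 0.55 ± 0.09. The replication clamp PCNA rose by 0.21 ± 0.04, while the proliferation marker MKI67 stood at -0.25 ± 0.10, not past the test. The pocket protein RBL2 rose by 0.50 ± 0.10.

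Stress and injury lists are given next, to be read against the 7.34% of all genes that rose and the 6.25% that fell. Counts with the block are read against its own 1280 rises and 1071 falls among the 10050 genes. Of 27 genes of amino acid synthesis and the ATF4 response 2 rose, CTH, which makes cysteine (0.94 ± 0.21), and the stress cytokine GDF15 (0.99 ± 0.21), and 3 fell, the mTORC1 inhibitors DDIT4 (-0.66 ± 0.11) and SESN2 (-0.51 ± 0.11) and the factor ATF5 (-0.51 ± 0.12, and -0.14 on another probe set, with the mean of both at -0.32 and an adjusted p of 0.0966 in limma); with the block 8 rose and 4 fell. GDF15 measured 12.06, 11.68 and 11.47 log2 units with Ra and 11.19, 10.49 and 10.54 in control cells, and its groups did not overlap. It was the single rise of 19 kidney injury markers (6 with the block): HAVCR1, or KIM-1, differed by 0.11 ± 0.14 and CLU by 0.28 ± 0.12, neither past the test, though CLU passed with the block (limma adjusted p = 0.0294). Of 23 p53 targets 4 rose and 2 fell, while CDKN1A stood at 0.03 ± 0.25, not past the test. NRF2 targets had 5 rises and 1 fall of 23 (11 and 1 with the block), led by the transporter ABCC3 (0.93 ± 0.10), and hypoxia genes 5 and 2 of 24. Of 17 cytokine, chemokine and NF-kB genes 0 passed limma's test (3 at an unadjusted p under 0.05; 1 rise and 3 falls with the block); CXCL8 differed by -0.18 ± 0.15 and IL6 by -0.62 ± 0.44, the latter with a limma adjusted p of 0.0137 under the block. Metallothioneins and zinc genes had 1 rise of 9, MT1M (0.43 ± 0.08), and 5 rises and 1 fall with the block. Among 14 clock genes NR1D2, a nuclear receptor that represses BMAL1, rose by 1.07 ± 0.13 and BHLHE40 by 0.75 ± 0.18 (0.35 on another probe set, with the mean of both at 0.55 and a limma adjusted p of 0.0862), and NFIL3 and CRY1 fell by 0.56 ± 0.11 and 0.30 ± 0.08. Cholesterol and fatty acid synthesis had 1 fall of 28, NSDHL (-0.59 ± 0.15), whose other probe set gave -0.26 and whose probe set mean missed the test (limma adjusted p = 0.0804).

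**Figure D3:**
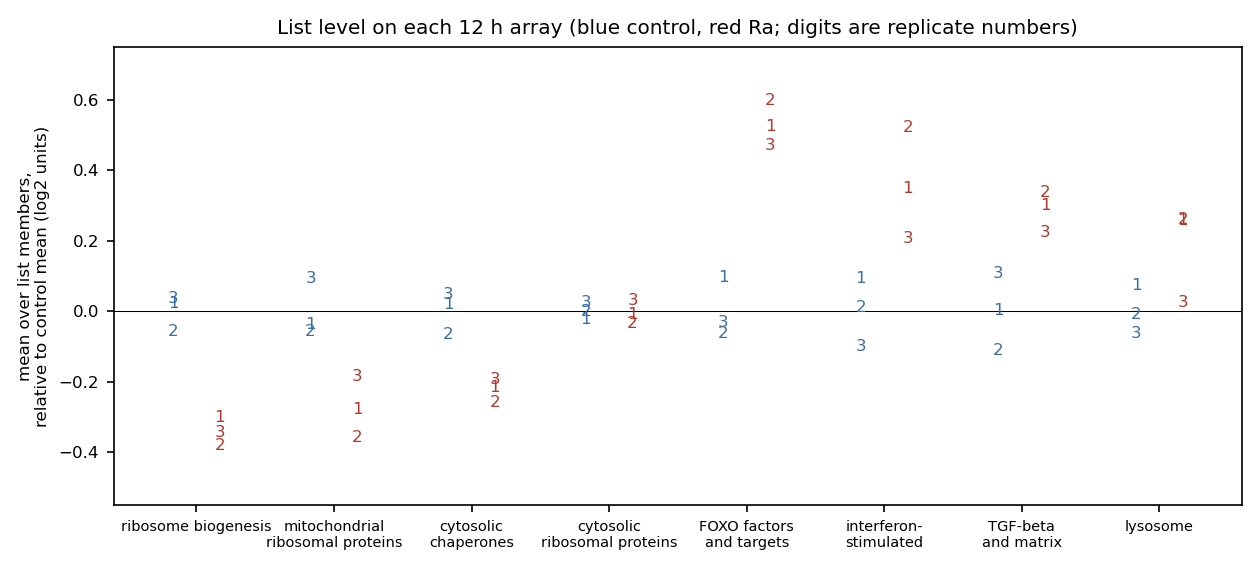
Mean over a list's members of the difference from the control mean (log2 units, vertical axis) on each of the 6 arrays, for 8 lists, with digits for the replicate numbers, red for Ra and blue for control. The Ra arrays lie below all control arrays for ribosome biogenesis (-0.30, -0.38 and -0.34) and above them for FOXO factors and targets (0.53, 0.60 and 0.47). KLHL24 and CREBRF were put on the FOXO list with their rises known, so its separation is in part built in.

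The 12 h changes were set beside the later time, where the groups hold other cultures. Ra 48 h replicate 2 stood apart, with an SD over its probe sets of 2.81 against 3.09 to 3.14 on the other 11 arrays, so each value is given with and without it. Of the 15 largest rises named above, 7 had a higher Ra mean at 48 h, and 10 without that array. Of the 15 largest falls, 14 were lower at 48 h, and 11 without it. Over all 738 rises 44.2% were higher at 48 h (61.8% without the array), against 32.9% of all genes (51% without it), and of the 628 falls 21.8% were higher (42.2%).

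The difference between the effects at the 2 times was tested in limma's fit of 12 arrays. It passed for 2 of 10050 genes (0.0199%), C5AR1 and CLIP4, both of which reached 5 log2 units in the control group of 48 h alone, and for 0 of the 30 largest changes, of which 13 had an unadjusted p under 0.05. Without Ra 48 h replicate 2 it passed for 320 genes (3.18%). These included 74 of the 738 rises and 53 of the 628 falls, and 6 of the 30 largest changes. The effect of Ra on KLHL24 at 48 h minus that at 12 h was then -2.08 ± 0.39 log2 units (SE; limma adjusted p = 0.0378), and the rises of CREBRF, ANKRA2, NATD1 and SULT1C2 passed the same test, as did the fall of WDCP. The 30 genes were chosen for their 12 h values, and this setting was chosen after the data were seen.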

How the data were processed

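Affymetrix arrays measured total RNA of HK-2 cells. The authors deposited log2 values made with GCRMA, per the submitters' processing notes. GCRMA corrects background by probe sequence, normalizes arrays together and summarises probe sets. Its version is not given in the sources used here. Of 54675 probe sets, 41097 had 1 gene symbol, 1801 several and 11777 none. Those with 1 symbol and at least 3 of 12 arrays at 5 log2 units or more were kept (17339), and per gene the probe set with the highest mean was used. Genes are array annotation symbols matched to RefSeq.

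The 6 arrays of 12 h were fitted alone with limma 3.58.1 in R 4.3.3, letting the prior variance follow intensity, with Benjamini-Hochberg adjustment across 10050 genes at 0.05. The gene lists and members were chosen with earlier results of these data known. Genes named are the 15 largest rises and falls with separate groups and means at 5 or more, and up to 4 members of a list that passed with the largest change. Any others, such as POLR1D, FOXO3 and ISG15, were chosen after their values were seen. The code was tested on simulated data.

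Same-numbered Ra and control arrays deviated together, with correlations of 0.182, 0.421 and 0.344 (other pairs -0.397 to -0.004). The replicate numbers were therefore taken as pairs in the fit with the replicate block. The main fit leaves the pairing out, so p-values, SEs and counts are unpaired unless the block is named. Promoters came from RefSeq (GRCh38.p14), matched by gene for 8360 of the 10050 genes. The 2-sided exact permutation test of 3 arrays against 3 cannot go below 0.1. Alternatives were other filters, probe set choices, normalizations, variance models, the replicate block, a 12-array fit and leaving out each array. Plots were drawn with matplotlib 3.10.9.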

Additional observations from a re-analysis of the deposited data

Results flagged for a closer look

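For 2 genes the effect of Ra at 48 h minus that at 12 h passed limma's test of the difference, C5AR1 and CLIP4. Both met the filter of 3 arrays at 5 log2 units or more only through the 3 control arrays of 48 h, the group in which they are high, so the values are given as a description and their sizes depend on GCRMA's background model. C5AR1, the receptor for the complement fragment C5a, had a difference of -4.13 log2 units. At 12 h it measured 4.80, 4.93 and 4.62 log2 units with Ra and 3.39, 3.11 and 3.36 in control cells, and at 48 h its means were 3.47 with Ra and 6.11 in control cells. CLIP4, of the CLIP family of microtubule-binding proteins, had a difference of -3.38 log2 units. Its control means were 2.69 at 12 h and 6.07 at 48 h, and its Ra means 2.70 at both times. Without Ra 48 h replicate 2 the differences were -4.09 for C5AR1 and -3.40 for CLIP4.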

How the results depend on the processing

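The number of genes called depended on the processing, while none of the 141 named genes changed sign. These genes were picked because they passed, and several settings leave the difference itself unchanged, so few reversals could occur. Single other probe sets were not among the settings. Among these genes, another probe set had the opposite sign for SMAD6 (-0.15), CTNNB1 (-0.22), KLHL42 (-0.09) and NFE2L2 (-0.02), which rose on the probe set used. Against 1366 calls (738 rises, 628 falls), limma called 506 (277 and 229) with no filter on low values, 2351 (1280 and 1071) with the replicate block, 89 (74 and 15) with a 2-fold minimum, and 904, with 374 falls, without the probe set types that can cross-hybridise. Falls numbered 947 with array weights. With all 12 arrays in 1 fit 3 genes were called, 3 rises and 0 falls, where 284 genes were lower at an unadjusted p under 0.05; a fit that shares its spread with the 48 h arrays loses 138 of the 141 named genes. Leaving out each array in turn gave 293 to 1388 calls, 166 to 764 rises and 127 to 624 falls. The smaller fit has 3 residual degrees of freedom, so fewer calls follow from its construction in part, and without Ra replicate 3 the count did not drop. The list medians kept their sign. Without the cross-hybridising types they moved to -0.35 for mitochondrial import, -0.19 for cytosolic chaperones and 0.17 for autophagy. Leaving out each array moved them between -0.40 and -0.33 for ribosome biogenesis, 0.15 and 0.23 for ERK output, 0.092 and 0.18 for autophagy, and 0.069 and 0.24 for the lysosome. All 141 named genes were called with the replicate block, which added MYC, IFIT1, IL6, CLU and LUM and changed no other call of a gene named with its value, and 53 to 118 of them when an array was left out. The share of calls that were rises lay between 50.7% and 63.4% over the settings other than the 12-array fit and the 2-fold minimum. Genes under 5 log2 units are limited by signal over background.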
